A study of Homo sapiens with 7 samples.

Results

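Clone 3 H3K9me3 domains on the autosomes were compared with the H3K9me3 domains that Clone 3 and Clone 6 share. Each domain was placed in 1 of 3 groups by the bases it has in the clone-shared set. Of the 567 domains deposited for Clone 3, 504 lie on chromosomes 1 to 22. Of these, 110 had no base in the clone-shared set and are called unshared here, 114 were partly covered by it and 280 were fully covered.

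Both clones are clonal lines of HCT116, an established colorectal carcinoma cell line, and carry a doxycycline-inducible shRNA against UHRF1. All samples used here were grown for 14 days with no doxycycline, so they are baseline cells that carry the shRNA without its induction. Clone 3 was assayed by chromatin immunoprecipitation and sequencing with 2 samples for H3K9me3, 2 for H3K27me3 and 1 input, and Clone 6 enters with 2 samples for H3K27me3. For Clone 6, H3K9me3 is known here only where Clone 3 shares it. An unshared domain is thus one that the clone-shared set lacks, with no level of H3K9me3 in Clone 6 behind it. A clone is 1 line, and the replicates of each clone and mark were merged before deposit, so the values below carry no replicate error and no p-value. The methods of the study set a minimum number of read pairs per library, but the depth reached by each library cannot be read from domain coordinates.

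H3K9me3 marks constitutive heterochromatin. It is written by SUV39H1, SUV39H2 and SETDB1, the last of which is brought to DNA by TRIM28 and KRAB zinc finger proteins, and it is read by the HP1 proteins. UHRF1, a ubiquitin ligase needed to copy DNA methylation after replication, also binds this mark. H3K27me3 is written by Polycomb repressive complex 2 and covers silent developmental genes as well as long gene-poor stretches, and the marks usually occupy different sequence.

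The unshared domains were short and CpG-poor, and their sequence is shown first. The longest unshared domain, chr2:40800001-41515000 (hg38), spans 715 kb with 5.60 CpGs per kb. The second longest, chr13:36013001-36572000, spans 559 kb with 7.90 CpGs per kb and holds DCLK1 and CCNA1. The longest fully covered domain, chr5:17600001-29036000, spans 11436 kb with 6.18 CpGs per kb. The central 200 bases of the chromosome 13 domain, on the plus strand of hg38, are given as a stretch away from its promoters, and any CpG would stand in capitals. Windows with 0 CpGs were not particular to unshared domains, since the centre of the fully covered domain chr4:58931001-67063000 also held 0.
Unshared, chr13:36292401-36292600: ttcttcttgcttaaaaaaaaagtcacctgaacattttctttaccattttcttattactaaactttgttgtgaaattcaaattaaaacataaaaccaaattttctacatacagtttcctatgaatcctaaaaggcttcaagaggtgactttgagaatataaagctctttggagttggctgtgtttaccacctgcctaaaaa
This window holds 0 CpGs. CpGs were not sparse throughout, and the central 200 bases of the unshared domain that holds KCNH8 have 8. RefSeq promoters (GRCh38.p14, from 250 bases before to 50 after the start) were found for 13 of the 15 protein-coding genes that start in an unshared domain, and 13 of those 13 windows lay inside the domain. They held between 0 and 35 CpGs with a median of 22. The chromosome 13 domain gave 6 of the 13, of which CCDC169 and CCDC169-SOHLH2 share 1 window, and the other 7 had a median of 18. The median was 22 over 14616 promoters of autosomal protein-coding genes, 11.5 over 138 promoters in partly covered domains and 14.5 over 374 in fully covered domains. Promoters of 5 genes are printed with CpGs in capitals, each on its gene's strand. CCNA1 and DCLK1 share the domain that Clone 6 marks with H3K27me3, FSHR has the fewest CpGs of the 13, NALCN starts in the longest uncovered stretch of a partly covered domain, and ZNF780B starts beside the edge of the shared set.
CCNA1, chr13:36431705-36432004, plus strand: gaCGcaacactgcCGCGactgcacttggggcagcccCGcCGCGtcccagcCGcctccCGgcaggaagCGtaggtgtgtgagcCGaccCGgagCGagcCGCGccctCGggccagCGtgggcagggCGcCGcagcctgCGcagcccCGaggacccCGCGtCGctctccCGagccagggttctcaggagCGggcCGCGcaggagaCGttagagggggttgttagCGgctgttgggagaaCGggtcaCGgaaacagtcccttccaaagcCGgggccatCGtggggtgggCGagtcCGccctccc
DCLK1, chr13:36131333-36131632, minus strand: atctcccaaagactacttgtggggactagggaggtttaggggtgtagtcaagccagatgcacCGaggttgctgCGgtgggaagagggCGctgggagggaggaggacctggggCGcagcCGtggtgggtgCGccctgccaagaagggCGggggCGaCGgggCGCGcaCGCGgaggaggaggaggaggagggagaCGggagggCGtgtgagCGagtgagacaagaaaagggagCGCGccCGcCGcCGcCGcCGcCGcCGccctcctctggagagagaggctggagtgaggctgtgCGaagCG
FSHR, chr2:49154466-49154765, minus strand: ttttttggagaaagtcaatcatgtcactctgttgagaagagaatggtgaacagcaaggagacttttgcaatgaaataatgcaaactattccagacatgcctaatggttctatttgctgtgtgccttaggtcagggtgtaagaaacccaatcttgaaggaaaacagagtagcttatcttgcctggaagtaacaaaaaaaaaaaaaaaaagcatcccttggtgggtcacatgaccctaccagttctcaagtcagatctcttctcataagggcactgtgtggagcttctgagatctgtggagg
NALCN, chr13:101416459-101416758, minus strand: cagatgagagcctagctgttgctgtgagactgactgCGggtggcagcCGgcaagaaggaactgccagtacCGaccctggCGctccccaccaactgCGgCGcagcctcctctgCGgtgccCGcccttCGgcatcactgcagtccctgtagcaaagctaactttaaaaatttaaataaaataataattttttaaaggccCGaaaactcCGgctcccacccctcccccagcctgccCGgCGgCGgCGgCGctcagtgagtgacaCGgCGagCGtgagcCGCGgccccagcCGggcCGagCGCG
ZNF780B, chr19:40056182-40056481, minus strand: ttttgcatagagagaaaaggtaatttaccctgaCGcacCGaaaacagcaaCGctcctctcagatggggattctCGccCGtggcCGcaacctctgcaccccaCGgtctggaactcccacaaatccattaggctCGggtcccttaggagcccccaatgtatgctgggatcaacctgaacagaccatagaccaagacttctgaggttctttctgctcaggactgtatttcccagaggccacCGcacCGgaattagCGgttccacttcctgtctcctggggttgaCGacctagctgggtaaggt
The CCNA1 window holds 35 CpGs, a number that 19.7% of promoters reach. DCLK1 has 27, reached by 39.3%. NALCN has 25 and ZNF780B 12. The FSHR window has 0 CpGs, as do 1.85% of promoters.

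The unshared domains were 21.8% of the domains but 3.67% of their length. They summed to 13.7 Mb, against 105.3 Mb in partly covered and 255.3 Mb in fully covered domains, out of 374.4 Mb. Their median length was 70.5 kb, with a range from 4 to 715 kb. Partly covered domains had a median of 610 kb and ranged from 26 to 5969 kb. Fully covered domains had a median of 244.5 kb and ranged from 9 to 11436 kb. None of the 112 domains of at least 1 Mb was unshared, while 35 of them were partly and 77 fully covered. Short length alone did not set an unshared domain apart, since 67 of the 116 domains under 50 kb were fully covered and 44 were unshared. The unshared fraction was 37.9% under 50 kb, 28.2% from 50 to 100 kb, 36.1% from 100 to 200 kb, 25.7% from 200 to 500 kb and 4.76% (3 of 63) from 500 to 1000 kb. Nearby domains can be pieces of 1 broader stretch. When domains under 50 kb apart were joined, 58 of 373 were unshared.

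Each domain carries 2 scores, whose scale and replicate the sources used here do not name. They were therefore used as ranks, and the lower of a domain's 2 percentiles among the 504 domains is given. Unshared domains ranked low, with a median of 12.9 and a highest value of 59.5. The median was 56.9 in partly covered and 40.0 in fully covered domains, and the highest values there were 98.3 and 99.4. Taking the lower of 2 ranks lowers all medians, which were 25.3, 59.1 and 59.2 by the first score alone and 21.0, 64.1 and 57.4 by the second. Of the 212 domains in the lowest 25 percentiles, 85 were unshared, and of the 98 domains above the 75th percentile, 0 were. The rank follows length, with a Spearman correlation of 0.918 over the 504 domains, which share libraries and in part share calls. The unshared median of the lower percentile was the lowest in each of the 5 length classes under 1 Mb. By the first score alone, medians for unshared, partly and fully covered domains were 29.7, 12.9 and 50.4 under 50 kb. From 50 to 100 kb they were 25.3, 22.2 and 24.7, so the unshared median was not the lowest in these 2 classes. From 100 to 200 kb the median lower percentile was 15.3 for 22 unshared, 24 for 12 partly covered and 33.3 for 27 fully covered domains. From 200 to 500 kb it was 31.9 for 19, 43.1 for 20 and 48.5 for 35. With scores divided by length, the median lower percentile was 13.4 for unshared, 27.2 for partly covered and 42.5 for fully covered domains.

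**Figure D1:**
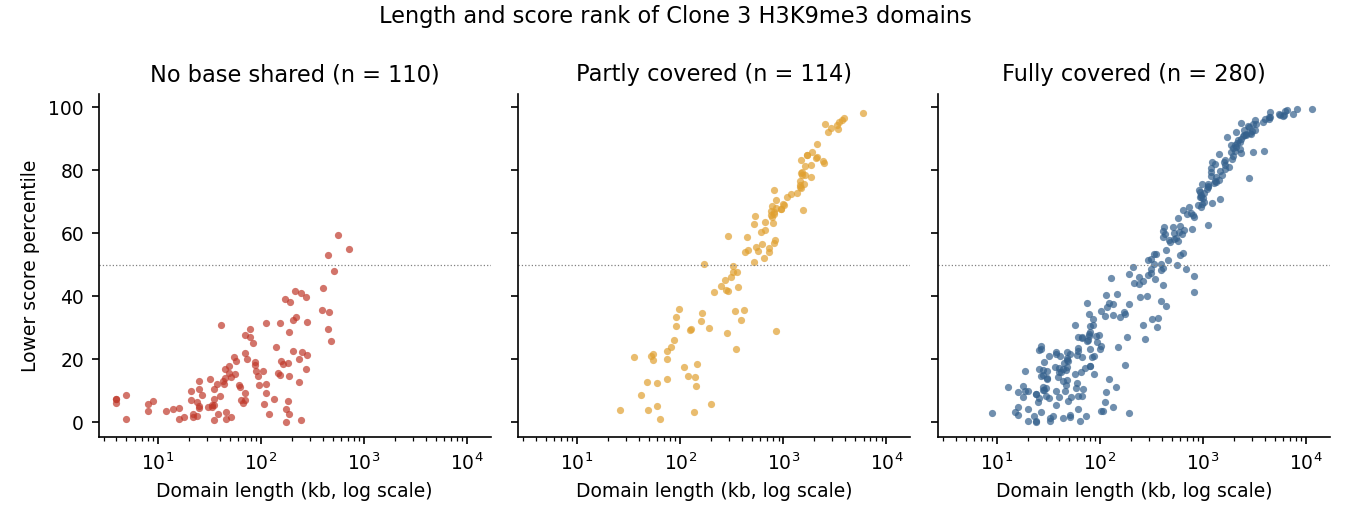
Length of each Clone 3 H3K9me3 domain (kb, log scale) against the lower of its 2 score percentiles, with a panel for each group. Points are domains and the dotted line marks the 50th percentile, above which lie 3 unshared, 67 partly covered and 119 fully covered domains.

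The 2 scores ranked the unshared domains differently, with a Spearman correlation of -0.06 over the 110 domains against 0.519 over all 504. A score can belong to a longer call, since neighbouring domains often carry the same value. Among the unshared domains, 72 shared their first score with a neighbour and 10 their second. In 26 of the 110, a neighbour with the same score in either list held bases of the clone-shared set. Unshared domains stood close to other Clone 3 domains, at a median of 21 kb from the nearest, against 485 kb for partly covered and 110 kb for fully covered domains. They stood far from the shared set, at a median of 2291 kb, with 16 within 50 kb of it and 42 within 1 Mb. Another unshared domain lay within 1 Mb of 73 of them.

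Unshared domains were found on 18 of the 22 autosomes. The 5 chromosomes with the most, picked for their counts, were 1, 2, 8, 13 and 14, which held 64 of the 110 (58.2%) and 29.6% of all autosomal Clone 3 domains. Chromosome 2 held 16 unshared domains of 36, chromosome 13 held 14 of 29, chromosome 8 held 12 of 31, and chromosomes 1 and 14 held 11 each, of 31 and 22. The unshared fraction was 35.5% on chromosome 1, and chromosomes 3 (8 of 23, 34.8%) and 12 (5 of 15, 33.3%) came close to it. Chromosomes 7, 10, 21 and 22 held 0. Counting uncovered stretches of partly covered domains too, 26.6% of the Clone 3 H3K9me3 length of chromosome 13 was outside the clone-shared set, against 14.7% on chromosome 2, 12.3% on chromosome 14 and 0.540% on chromosome 19, where most KRAB zinc finger genes lie. The windows given next were picked for their unshared domains, so their fractions are not unselected rates. On chromosome 13, 11 of the 16 domains between 75 and 95 Mb were unshared. These 11 ran from 81464001 to 90654000, summed to 1.53 Mb and held the start of 0 protein-coding genes. On chromosome 14, 9 of the 12 domains between 38 and 50 Mb were unshared, summed to 1.15 Mb and held 3 genes, SSTR1, CLEC14A and LRFN5. Copy number of these chromosomes in the clones was not examined.

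**Figure D2:**
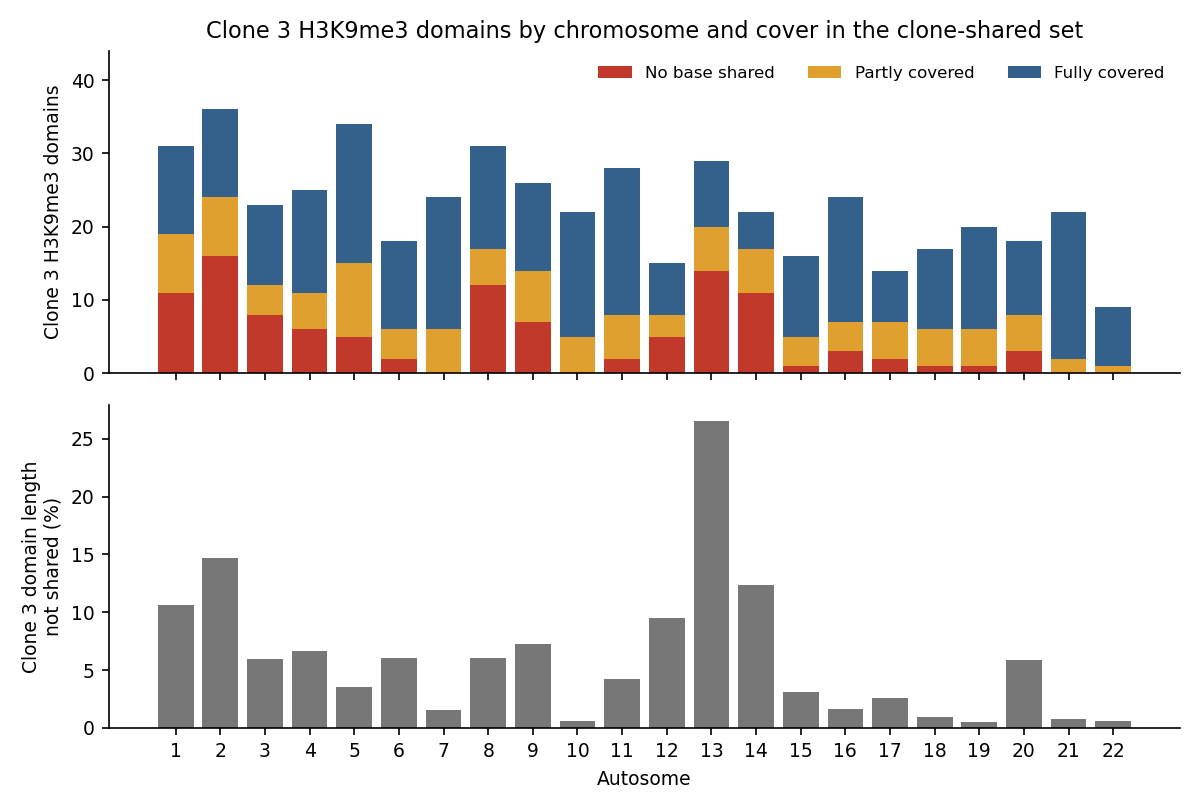
Clone 3 H3K9me3 domains on each autosome, stacked by group (upper panel, number of domains), and the percent of their length outside the clone-shared set (lower panel). Chromosome 13 stands highest in the lower panel at 26.6%.

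The unshared domains overlapped H3K27me3 of Clone 6 far more than H3K27me3 of Clone 3. Of their length, 18.4% (2.53 Mb) lay in Clone 6 H3K27me3 domains and 2.50% (0.343 Mb) in those of Clone 3. In fully covered domains the shares were 1.18% for Clone 6 and 1.16% for Clone 3, and in partly covered domains 1.83% and 0.729%. The same direction was seen within partly covered domains. Their uncovered stretches, 9.35 Mb in all, lay to 7.78% in Clone 6 H3K27me3 and to 0.385% in Clone 3 H3K27me3. Over the 23.1 Mb of Clone 3 H3K9me3 outside the clone-shared set, the shares were 14.1% for Clone 6 and 1.64% for Clone 3. Over the 351.3 Mb of the clone-shared set they were 1.20% and 1.05%. Of the gap-free autosomal sequence, 13% lay in Clone 6 and 13.5% in Clone 3 H3K27me3. Of the 3 groups, the unshared domains alone had a share above the autosomal one, and only for Clone 6. The clone-shared set is H3K9me3 in Clone 6 by definition, and unshared domains are those it lacks. Since the marks usually occupy different sequence, this contrast is not independent of how the groups were made.

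**Figure D3:**
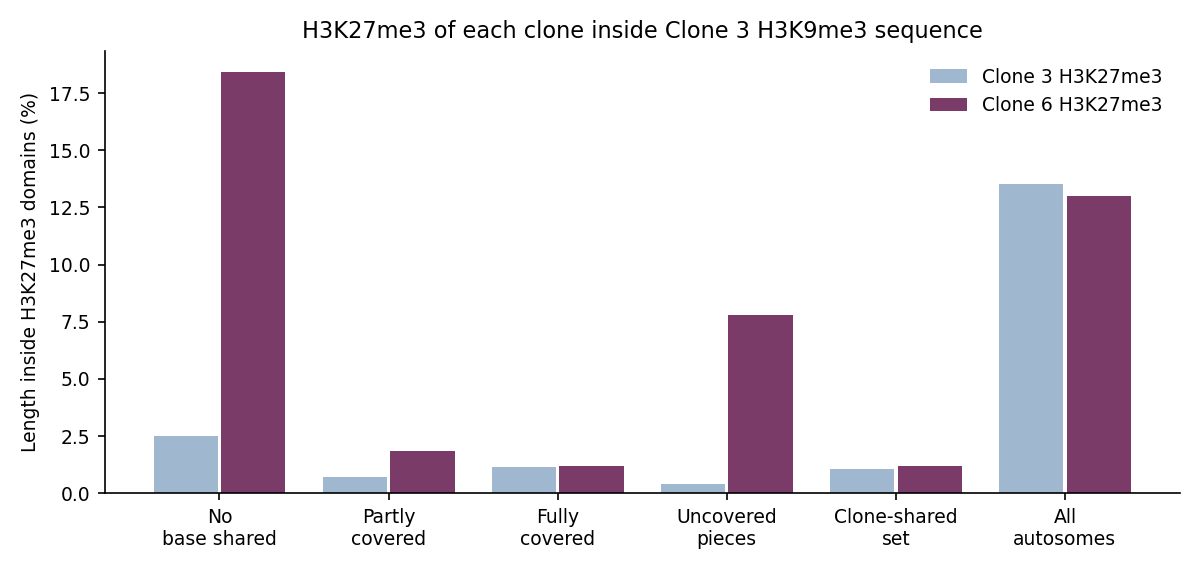
Percent of length inside H3K27me3 domains of Clone 3 and of Clone 6 for the 3 groups, for the uncovered pieces of partly covered domains, for the clone-shared H3K9me3 set and for gap-free autosomal sequence. The clones differ most in the unshared domains, at 2.50% and 18.4%.

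A minority of the unshared domains carried this overlap. Clone 6 H3K27me3 met 18 of the 110 (16.4%), against 18 of the 114 partly covered (15.8%) and 9.72% of all 504 domains. Clone 3 H3K27me3 met 5 unshared domains (4.55%) and 8.93% of all. The unshared and partly covered groups thus met Clone 6 H3K27me3 about equally often by number of domains. At least 50% of the length lay in Clone 6 H3K27me3 in 9 domains and in Clone 3 H3K27me3 in 2. The chromosome 2 and chromosome 13 domains described above held 1.19 Mb of the 2.53 Mb. Without them, 10.8% of the unshared length lay in Clone 6 and 2.75% in Clone 3 H3K27me3, so the Clone 6 share was then under the autosomal one. Leaving out each chromosome in turn gave between 17.2% and 20.1% for Clone 6. Among the 44 unshared domains of at least 100 kb, 13 met Clone 6 H3K27me3, and among the 66 shorter ones 5 did.

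In chr2:40800001-41515000, 639 of 715 kb lay in 4 Clone 6 H3K27me3 domains and 0 kb in Clone 3 H3K27me3, whose nearest domain was 43 kb away. It holds no protein-coding or lncRNA start. In chr13:36013001-36572000, 552 of 559 kb lay in a single Clone 6 H3K27me3 domain of 794 kb that runs from 36020001 to 36814000. Again 0 kb lay in Clone 3 H3K27me3, whose nearest domain was 13 kb away. The chromosome 13 domain was also the unshared domain with the highest lower percentile, at 59.5. On chromosome 3, all 188 kb of chr3:117252001-117440000 lay within a Clone 6 H3K27me3 domain of 1328 kb, with 0 kb in Clone 3. In chr1:208848001-209085000 the values were 141 of 237 kb for Clone 6 and 0 kb for Clone 3.

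Other unshared domains had H3K27me3 in both clones. In chr4:181568001-182016000, 354 of 448 kb lay in Clone 6 H3K27me3 and 204 kb in that of Clone 3. In chr8:40448001-40554000 all 106 kb lay in Clone 6 and 82 kb in Clone 3 H3K27me3. In these sequences the H3K9me3 and H3K27me3 domains of Clone 3 overlap each other.

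**Figure D4:**
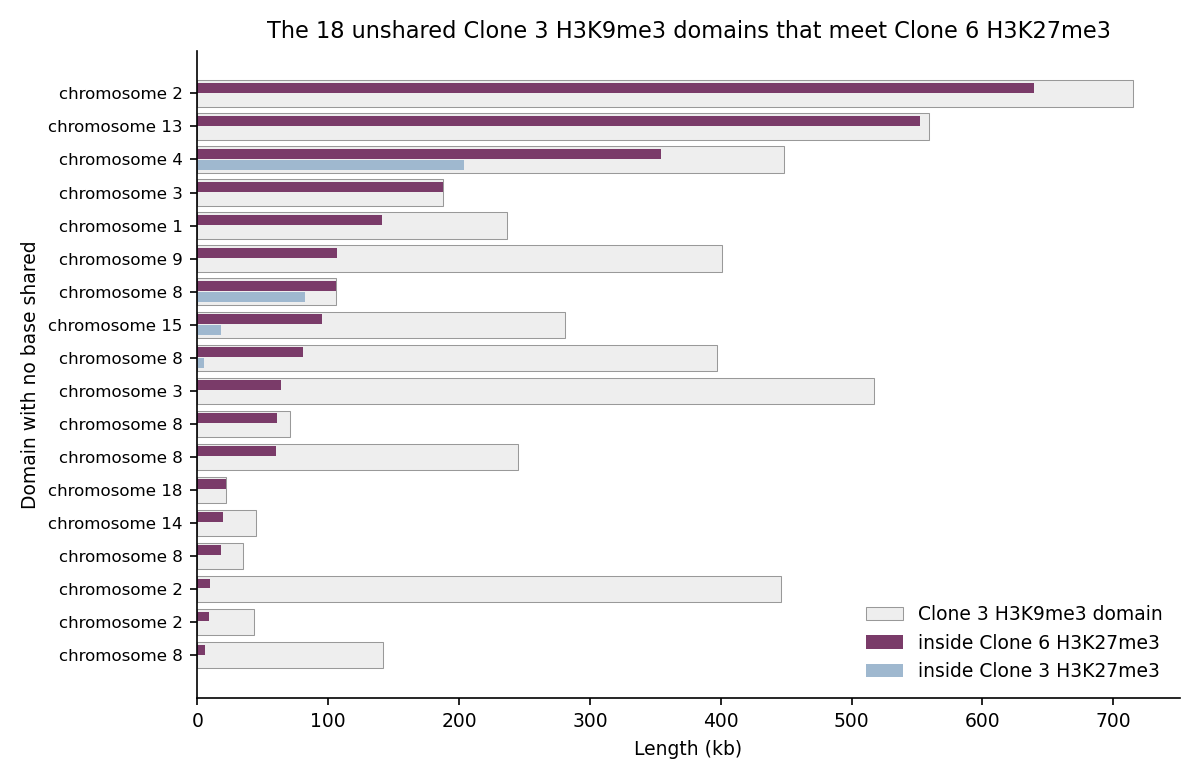
The 18 unshared domains that meet Clone 6 H3K27me3, each as a bar of its length in kb, with the length inside Clone 6 H3K27me3 and inside Clone 3 H3K27me3 drawn over it. The top 2 bars reach 639 and 552 kb for Clone 6 and 0 kb for Clone 3.

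The other 92 unshared domains met no Clone 6 H3K27me3. The unshared domains lay farther from Clone 3 H3K27me3 than the other groups, while for Clone 6 the order depended on the distance used. Their median distance to a Clone 3 H3K27me3 domain was 555.5 kb, against 132.5 kb for partly covered and 168.5 kb for fully covered domains. Within 100 kb of Clone 3 H3K27me3 lay 18 unshared domains (16.4%), 47 partly covered (41.2%) and 112 fully covered domains (40.0%). For Clone 6 H3K27me3 the median distances were 833.5, 98.5 and 192 kb, and the shares within 100 kb were 27.3%, 50.9% and 31.1%. Within 50 kb of Clone 6 H3K27me3, however, lay 21.8% of unshared, 28.9% of partly covered and 16.4% of fully covered domains, and 16.4%, 15.8% and 4.64% overlapped it. Longer domains have more room to lie near another mark. By length class, the shares within 100 kb of Clone 3 H3K27me3 for unshared, partly and fully covered domains were 15.9%, 20.0% and 26.9% under 50 kb. They were 9.09%, 14.3% and 9.52% from 50 to 100 kb, and 9.09%, 25% and 18.5% from 100 to 200 kb. From 200 to 500 kb they were 26.3%, 30% and 40.0%. From 500 to 1000 kb, with 3 unshared domains, they were 66.7%, 42.9% and 56.2%. The unshared share was the lowest in the 4 classes under 500 kb and the highest in the fifth. This order rests in part on few domains, since only 5 partly covered ones were under 50 kb. From 50 to 100 kb, 9.09% and 9.52% are nearly equal.

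CpG density was lowest in the unshared group. Pooled over the group it was 6.29 CpGs per kb, against 6.96 in partly covered domains, 7.29 in fully covered domains and 10.1 over the autosomes. GC content followed, at 36.9%, 37.5% and 37.8% against 41.0% over the autosomes. Low-density CpGs, those with no other CpG within 20 bp, made up 67.6%, 64.8% and 63.5% of the CpGs, and 52.7% over the autosomes. Without chromosome 19 the densities were 6.29, 6.84 and 7.05. The median domain had 5.80, 6.56 and 7.42 CpGs per kb. Among fully covered domains no longer than the longest unshared one, of which there were 187, the median was 8.27. Individual unshared domains ran from 3.57 to 24.9 CpGs per kb, so the groups overlap.

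**Figure D5:**
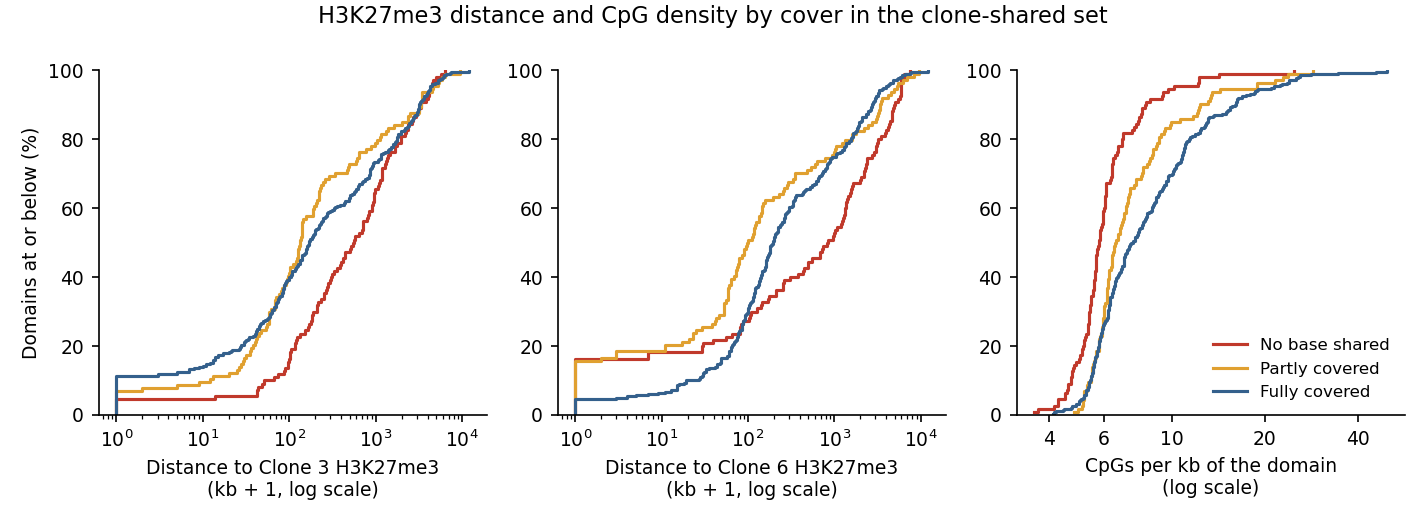
Cumulative percent of domains by distance to the nearest H3K27me3 domain of Clone 3 (left) and Clone 6 (middle), both in kb plus 1 on a log scale, and by CpGs per kb (right, log scale), with a line for each group. The unshared line lies lowest in the left panel through most of its range and reaches its median of 5.80 CpGs per kb first in the right panel.

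Few genes start in unshared H3K9me3. Protein-coding starts numbered 15 in 9 of the 110 domains (8.18%), which is 0.0785% of the 19111 autosomal protein-coding genes. Partly covered domains held 180 (0.942%), 7 of them (0.0366%) in the uncovered stretches, and fully covered domains held 474 (2.48%). Per Mb this was 1.09 in unshared, 1.71 in partly covered and 1.86 in fully covered domains, against 6.93 over the autosomes. Starts of lncRNA genes came to 2.77, 4.33 and 4.61 per Mb, against 6.67. The share of domains with a protein-coding start was 49.1% in the partly covered and 43.2% in the fully covered group. Among domains of at least 100 kb, 15.9% of the unshared and 63.7% of the fully covered ones had a start, but their median lengths were 199 and 895 kb. By length class, the unshared and fully covered shares were 9.09% and 37.0% from 100 to 200 kb, and 15.8% and 48.6% from 200 to 500 kb. From 500 to 1000 kb, with 3 unshared domains, the order was reversed at 66.7% and 50.0%. The files hold no expression, so position alone is given.

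The domain at chr13:36013001-36572000 held 6 of the 15 genes. DCLK1 encodes a doublecortin-like kinase found in tuft cells, SOHLH2 a germ cell transcription factor, SPART the protein spartin, and CCNA1 the germline cyclin A1, and CCDC169 and the readthrough CCDC169-SOHLH2 also start there. All 6 starts lay inside the Clone 6 H3K27me3 domain. In Clone 3 the nearest H3K27me3 was 13 kb from the edge of the domain, 131 kb from the DCLK1 start and 223 kb from that of CCNA1. KCNH8, a voltage-gated potassium channel gene, starts in a 517 kb domain on chromosome 3, of which 64 kb lay in Clone 6 H3K27me3, 103 kb from the start.

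The other genes described here lay apart from H3K27me3 of both clones. FSHR, the receptor for follicle-stimulating hormone, starts in a domain of 153 kb, 105 kb from H3K27me3 in each clone. LRRC3B, a leucine-rich repeat gene, starts in a 221 kb domain, 219 kb from Clone 3 and 181 kb from Clone 6 H3K27me3. SSTR1, a somatostatin receptor, and CLEC14A, an endothelial surface lectin, share a domain of 208 kb whose nearest Clone 3 H3K27me3 is 1182 kb away. The synaptic adhesion gene LRFN5 starts in a domain of 280 kb, 1978 kb from Clone 3 and 7773 kb from Clone 6 H3K27me3. XIRP2, a muscle actin-binding protein gene, starts in a 45 kb domain, and TUSC3, a subunit gene of the oligosaccharyltransferase complex, in one of 39 kb.

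A larger share of unshared domains than of the other groups lay within 1 gene. Of the 110, 19 (17.3%) were wholly inside a protein-coding gene body, against 7 partly covered (6.14%) and 14 fully covered domains (5.00%). Small domains fit in a gene more easily, and the difference was not set against length. THSD7B on chromosome 2 held 5 of them, which ran from 136836001 to 137531000, between 25 and 446 kb long and 672 kb in all. These 5 carry the same first score, so they can be pieces of 1 longer call. MACROD2, a very long gene on chromosome 20, held 3 of 63 to 188 kb, and XIRP2 held 2. AGBL4, FHIT, INPP4B, TUSC3, MSR1, NRG1, ZFPM2, USP6 and the unnamed gene ENSG00000285329 held 1 each. FHIT spans a common fragile site.

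Gene families are given beside the shares over all autosomal protein-coding genes, which were 0.0785% in unshared domains, 0.0366% in uncovered stretches and 3.39% in the clone-shared set. At the first of these shares a count of 0 is near background for each family, and nothing is read from it. Of 554 autosomal ZNF genes, 0 started in an unshared domain, 2 in an uncovered stretch, 48 in the covered part of a partly covered domain and 175 in a fully covered domain. Olfactory receptor genes counted 0 unshared, 40 in covered parts and 37 in fully covered domains of 415. The clustered protocadherins had 36 of 53 starts and the keratin-associated proteins 31 of 94 in fully covered domains, with 0 elsewhere in the Clone 3 set. Type II cadherins, adhesion genes set in gene deserts, had 8 of 13 in fully covered domains, among them CDH9, CDH10, CDH12 and CDH18 in the longest domain, where PRDM9, the meiotic H3K4 methyltransferase, also starts. The taste receptor genes had 1 of 27, TAS2R1, in a fully covered domain, and the cytochrome P450 and UGT genes 1 of 79 in a covered part.

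Over all autosomal protein-coding genes, 669 (3.5%) started in a Clone 3 H3K9me3 domain, so a count of 0 in a short list is near that background. Of 20 genes for the writers, erasers and readers of H3K9me3, 0 started in one. The 39 HOX, 46 defensin and 79 histone genes of the lists also had 0 starts there, but the histone list leaves out H3Y1, a variant H3 gene that starts in the longest fully covered domain. The 12 colorectal epithelial markers, among them EPCAM, CDH1, KRT20 and CDX2, and 7 ubiquitously expressed genes had a count of 0 as well. Nothing particular to these lists is read from such counts.

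Partly covered domains were mostly shared. The median one was covered to 95.3%, 74 of 114 were covered to at least 90% and 10 to less than 50%. Uncovered sequence formed 152 pieces of 9.35 Mb in all. Of these, 129 pieces (7.31 Mb) lay at a domain edge and 23 (2.04 Mb) inside a domain. The domain was trimmed at 1 edge in 79 cases, at both in 25, and was open only inside in 10. The median uncovered length was 24 kb, and 33 domains lacked at most 10 kb. The 25 domains with over 100 kb uncovered held 7.29 Mb of it. If such edge differences up to 10 kb were disregarded, 79 domains remained partly covered.

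The domain with the most uncovered sequence was chr13:101180001-102188000, where 966 of 1008 kb were outside the clone-shared set. It holds the starts of NALCN, the sodium leak channel, and ITGBL1, and 114 kb of it lay in Clone 6 H3K27me3, against 0 kb in Clone 3. In chr13:80608001-81453000, 729 of 845 kb were uncovered and no protein-coding gene starts there. The longest partly covered domain, chr11:36972001-42941000 with LRRC4C, a postsynaptic adhesion gene, lacked 820 of 5969 kb. The domain chr1:237453001-241293000 lacked 544 of 3840 kb. In chr2:34109001-35684000, 469 of 1575 kb were uncovered.

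The uncovered stretches held 7 gene starts in all. ZNF780B started 0.230 kb from the edge of the clone-shared set, within an uncovered stretch of 26 kb in a domain of 74 kb. ZNF32 was 18.9 kb from that edge. GC, the vitamin D-binding protein gene, was 28.0 kb from it, in a domain of 453 kb that lacked 65 kb. GRXCR1, a hearing gene, was 7.29 kb from it and 12.7 kb from Clone 6 H3K27me3, against 153 kb for Clone 3. CYYR1 lay in Clone 6 H3K27me3, at 43.3 kb from that of Clone 3. The uncovered stretches had 6.54 CpGs per kb, between the unshared domains and the clone-shared set, which had 7.21.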

How the data were processed

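Per the submitters' notes and the study's methods, read pairs of 50 bp were trimmed (Trim Galore 0.5.0, FastQC 0.11.8), aligned to hg38 with Bowtie2 2.3.5 and deduplicated. The authors called broad domains with Enriched Domain Detector at default settings and kept those found in both replicates, and for the clone-shared sets those found in both clones. They deposited 5 domain sets in hg38 coordinates. The 3 clone sets carry 2 columns with the authors' score per domain, deposited as the domain caller gave it or as later merged (not given in the sources used here), and ranked here within the set. A minimum depth is stated in the methods, but merged sets hold no depth per library, so its effect on precision is unknown.

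From these, overlaps and edge distances were computed in bases, with CpGs counted in bins of 1 kb of hg38 and genes placed by their GENCODE 44 start site. Named genes were those starting in unshared domains or uncovered stretches and those of the longest and highest ranked fully covered domains. Named domains were the 5 longest and the 3 highest ranked unshared ones, the 5 partly covered ones with most uncovered sequence and the longest fully covered one. Genes holding whole domains and other domains with H3K27me3 were named after their values were seen. The rules, groups and gene lists were chosen with earlier results of these data known. Interval functions were tested on simulated data. Intervals were handled with pandas 2.3.3 and numpy 2.4.6 under Python 3.11.15, binomial intervals came from scipy 1.17.1, and plots from matplotlib 3.10.9. Alternatives covered domain length, chromosomes, edge tolerance, joining, the score used, gene bodies, and the distance and H3K27me3 set. Some genes and sequences that these rules select are not reported here.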

Additional observations from a re-analysis of the deposited data

How the results depend on the processing

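No paired analysis was possible because replicates were merged before deposit, and for the same reason no replicate could be left out. Over 15 results, 67 of 101 alternatives stayed within the 95% binomial interval of the main value, or within 1.5 times a count. Such an interval treats domains as independent, which neighbours are not. The causes of the changes below were not tested beyond what each alternative's construction gives. Values are given as unshared, then partly, then fully covered where all 3 moved. Keeping domains of at least 100 kb left 44 unshared and 171 fully covered domains, with median lengths of 199.0 and 895 kb. The median lower score percentiles, ranked anew among the 310 domains kept, were then 8.23, 49.0 and 55.5. A protein-coding start was then present in 15.9% of unshared and 63.7% of fully covered domains, and 52.6% of fully covered ones lay within 100 kb of H3K27me3. Joining domains under 50 kb apart gave 58 unshared and 164 fully covered domains, with median lengths of 187 and 536.5 kb. With all chromosomes and contigs, fully covered domains had a median length of 112 kb, 37.1% had a start and 33.5% lay near H3K27me3. The first score alone gave medians of 25.3 for unshared and 59.2 for fully covered domains, the second 21.0 and 57.4, and scores per kb 27.2 for partly covered ones. Gene bodies in place of starts gave 30%, 63.2% and 54.3%. A limit of 50 kb to H3K27me3 gave 24.6% of partly and 27.1% of fully covered domains, and one of 200 kb gave 30%, 60.5% and 53.6%. Clone 6 H3K27me3 gave 27.3%, 50.9% and 31.1%, and the clone-shared H3K27me3 set gave 26.4% of fully covered domains. Leaving out chromosomes 13 and 14, chosen after seeing the data, moved none of the 15 results past these limits.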

Other observations

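On chromosome X, 36 of 39 domains were fully covered, 2 partly covered and 1 unshared, and 93.7% of their 1.01 Mb was in the clone-shared set, against 93.8% of the autosomal length. The median length there was 23 kb. On 15 contigs, 16 of 22 domains were fully covered, 5 partly covered and 1 unshared, with 99.1% of 1.48 Mb shared.

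The domain chr16:13088001-13508000, partly covered, lay over its whole 420 kb in H3K27me3 domains of both clones. Among partly covered domains, chr17:14560001-14854000 lay over 294 kb in Clone 6 and 31 kb in Clone 3 H3K27me3, and chr13:77780001-78120000, where EDNRB, an endothelin receptor gene, starts, over 136 kb and 0 kb. In chr21:26541001-28678000 the values were 195 kb and 0 kb.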
